A study of Mus musculus with 16 samples.

Results

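All reperfused hearts were set against sham hearts as a single comparison across the 16 arrays of the study, 12 from reperfused and 4 from sham-operated mice. Every mouse was a wild-type C57BL/6 male of 10 weeks. In the reperfused groups a coronary artery, the left anterior descending, was ligated for 30 min and opened again for 6, 24 or 72 h, with 4 hearts at each time. The sham group of 4 hearts had surgery, and its labels carry no hour. Time since surgery and reperfusion therefore cannot be told apart from these groups, and RNA came from whole hearts, so spared and injured muscle were measured together. The quantity called the pooled change is the mean of the 3 reperfusion group means minus the sham mean, on the log2 scale, and each time has equal weight in it. The genes described are those that passed the test of the pooled change with all 3 time means on 1 side of the sham mean, called same-direction genes here.

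Blocking a coronary artery starves heart muscle of oxygen, and reopening it brings back oxygen together with blood cells and plasma proteins. Dying cardiomyocytes release signals that draw in neutrophils and then monocytes, which clear debris, while fibroblasts lay down a matrix that becomes scar. Surviving cardiomyocytes are known to lower genes of energy metabolism and of ion channels and to raise stress genes. In samples of a whole organ, fewer cells of a type and less RNA per cell cannot be told apart.

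Of 19505 genes tested with limma, 4750 (24.4%) passed an adjusted p of 0.05 in the pooled contrast, 2354 higher (12.1%) and 2396 lower (12.3%) after reperfusion. Same-direction genes made up 3964 of these (20.3% of genes tested), with 1765 rises (9.05%) and 2199 falls (11.3%). In 1146 of these genes (5.88%), 524 rises (2.69%) and 622 falls (3.19%), no reperfused array overlapped any sham array. The remaining 589 rises and 197 falls of the pooled contrast had at least 1 time on the other side of sham. The 5222 negative control probe sets were fitted and adjusted on their own, so they were not held to the cut-off of the genes. Among them limma called 0, and 485 had an unadjusted p under 0.05, a share above 0.05. In 13 (0.249%) the reperfused and sham arrays did not overlap, counted without asking for a call as was done for genes. The last gene inside the threshold was Ssbp4, with a pooled change of 0.36 ± 0.13 (SE), and the first outside was Rprd1b, with -0.34 ± 0.12.

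The median pooled change was 0.83 for same-direction rises and -0.59 for same-direction falls, against -0.06 for all genes. At every time 224 rises were displaced by at least 1 log2 unit, 59 by at least 2 and 12 by at least 3, while 62 falls reached 1 and 0 reached 2. An F test among the 3 reperfusion times, which leaves the sham arrays out of the contrast, passed for 1275 of 1765 rises (72.2%) and 1081 of 2199 falls (49.2%), against 37.3% of all genes. The largest displacement came at 24 h for 788 rises (44.6%) and 977 falls (44.4%). For rises the next most frequent time was 72 h, with 560 genes, and for falls it was 6 h, with 748. The sham mean lay under the background level for 707 of the rises, where background is a signal of 6.76, the 75th percentile of the negative controls. The sham mean and all 3 time means were under it for 335 rises and 472 falls.

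**Figure D1:**
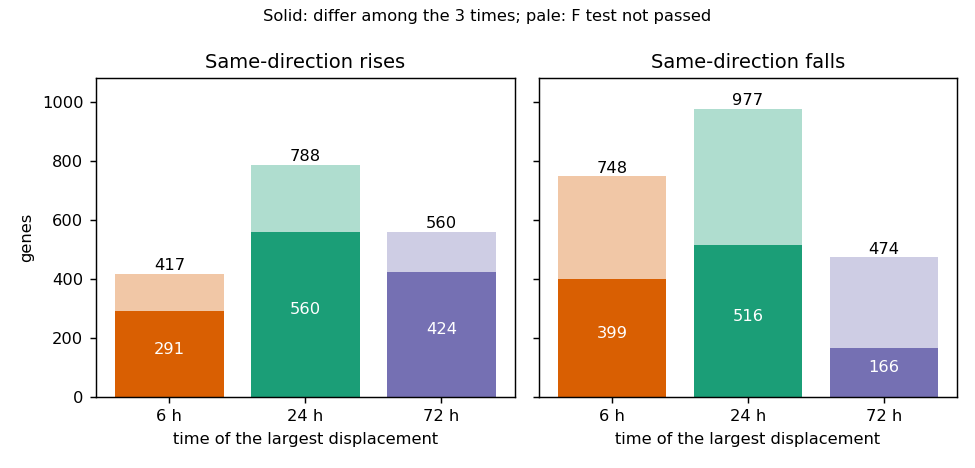
Bars count same-direction genes by the reperfusion time of their largest displacement from sham, rises on the left and falls on the right, and the y axis is the number of genes. The solid part is the genes that differ among the 3 times by the F test, 291, 560 and 424 of the rises and 399, 516 and 166 of the falls.

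The labelled tissue showed in the heart muscle markers: the mean signal of 12 cardiomyocyte markers was at least 17.52 in every sham heart, and each marker was above background in at least 1 group. A few arrays stood apart. On the first principal component, which held 37.2% of the variance, replicate 17 of the 24 h group lay at 10.8 and the other 24 h arrays between 35.1 and 40.7. Replicate 16 of that group had a mean signal of 11.34 over 9 atrial markers, against a lowest value of 8.77 and a median of 8.99 in the group. Replicate 5 of the sham group departed from the other sham hearts in several genes named in the results. Same-direction rises numbered 1870 without the first of these arrays, 1697 without the second and 1751 without the third, and falls 2343, 2089 and 1860. Over 6 measures of spike-ins, control probes and array medians, differences between reperfused and sham arrays ran from -0.19 to 0.08, with adjusted p from 0.547 to 0.983 in two-sided exact permutation tests over 1820 splits. Single times departed from sham in opposite directions, which the pooled values do not show. The hybridization spike-ins lay between 10.45 and 10.60 in sham, between 10.69 and 10.80 at 6 h and between 9.86 and 10.17 at 72 h. The positive controls lay between 9.76 and 9.84 in sham, between 9.39 and 9.70 at 6 h and between 9.86 and 10.14 at 24 h. The poly-A spike-ins lay between 6.76 and 6.89 in sham and between 7.04 and 7.30 at 6 h. The part of these shifts in the changes at single times was not tested. The p-values of all tests measure the spread between these hearts. The deposited values reach 19.82, above what a scanner records, so folds are on the deposited scale and may be stretched.

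The split between rises and falls depended on the scale. With every array centred on its 4 hybridization spike-ins, whose mean was 10.54 ± 0.06 (SD, n = 4) in sham and 10.35 ± 0.34 (SD, n = 12) in reperfused hearts, the median gene shifted to 0.13. Then 3339 genes were higher and 850 lower, so that rises were 79.7% of calls in place of 49.6%. With centring on the poly-A spike-ins the median was -0.14 and rises were 41.3% of calls. Of the same-direction genes, 1417 rises and 668 falls kept their class on the hybridization spike-ins, and 1029 rises and 1990 falls on the poly-A spike-ins. Centring on the median gene gave 2126 rises and 3075 falls, or 40.9% rises. Falls thus lost most of their calls on one spike-in scale, and rises a larger share than falls on the other.

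Among same-direction genes above background whose reperfused and sham hearts did not overlap, the 15 rises with the largest change at their weakest time encode protease inhibitors, a matrix protein, proteins of heme and hemoglobin handling, chemokines and receptors of myeloid cells. For rises, above background means that the lowest time mean reached 6.76, so a rise could lie under it in sham. This was so for Timp1, Thbs1, Cxcl5, Selp, Hp, Csf3r, Clec4d, Gpr35, Tlr13, Itgam and Lilr4b. Their sham means ran from 3.9 for Selp to 6.38 for Lilr4b, so the size of their changes is uncertain. Timp1 encodes a secreted inhibitor of matrix metalloproteinases. Its log2 signal was 5.17, 4.59, 5.32 and 5.01 in the 4 sham hearts, and in the 12 reperfused hearts it ran from 10.74 over a median of 13.16 to 14.98. No reperfused heart came within 5 log2 units of any sham heart. The pooled change was 7.73 ± 0.41 (SE, limma adjusted p = 4.67e-10), 212-fold on the deposited scale, and the changes at 6, 24 and 72 h were 6.04, 8.95 and 8.18. All time changes given here share the same sham hearts and are not independent of each other.

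Serpina3n encodes a secreted inhibitor of serine proteases that also belongs to the acute-phase proteins. Its sham values were 8.74, 7.92, 8.20 and 5.97, and its reperfused values ran from 11.69 over 13.26 to 14.40. The sham heart at 5.97 was replicate 5, and the groups did not overlap. The pooled change was 5.40 ± 0.42 (limma adjusted p = 4.46e-08), and 4.83 without that heart. Its changes at the 3 times were 5.66, 5.02 and 5.54, and the limma F test among times gave an adjusted p of 0.553.

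Thbs1, a matricellular protein released by platelets and stressed tissue, and Cxcl5, a chemokine for neutrophils, were highest early. Thbs1 was at 5.31, 4.48, 4.62 and 4.57 in sham and ran from 8.37 over 10.34 to 14.06 after reperfusion, with time changes of 8.92, 5.07 and 4.66. Cxcl5 was at 4.82, 4.26, 4.67 and 4.38 in sham and between 7.29 and 11.43 after reperfusion, with time changes of 6.46, 4.62 and 3.58. Neither gene was in the sham range in any heart at 72 h, as the rule that named them requires. Hmox1, the enzyme that breaks down heme, rose by 5.53 ± 0.52 (limma adjusted p = 3.34e-07), from 7.66 ± 0.14 (SD, n = 4) in sham. Its means were 13.86, 12.23 and 13.49 at the 3 times, and the limma F test among them gave an adjusted p of 0.101. Hp encodes haptoglobin, which binds free hemoglobin, and its changes were 3.53, 3.55 and 3.6. This enzyme and this hemoglobin-binding protein were above sham in all 12 reperfused hearts, which the same rule requires.

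Receptors of neutrophils, monocytes and macrophages filled much of the rest. Lilrb4a, an inhibitory receptor of myeloid cells, was at 10.15, 10.18, 10.24 and 10.21 in sham and ran from 13.30 over 14.49 to 15.31 in reperfused hearts. Lilr4b, a near-identical copy of Lilrb4a, had a pooled change of 4.46 against 4.16, and each is uncertain because a probe may read both. Itgam encodes the CD11b integrin chain of myeloid cells. It was at 6.44, 6.11, 5.37 and 6.43 in sham and ran from 9.25 over 10.39 to 12.67, with changes of 3.29, 5.29 and 4.51. Csf3r, the receptor that takes the growth signal for neutrophils, had changes of 3.0, 5.28 and 3.72. Clec4d, a lectin receptor of myeloid cells, changed by 3.77, 4.09 and 3.70, and Tlr13, a receptor for bacterial ribosomal RNA, by 2.92, 4.09 and 4.65. Ccl9, a chemokine of macrophages, changed by 3.06, 4.40 and 3.11, and Gpr35, a G protein-coupled receptor, by 2.94, 4.04 and 3.0. Selp, the P-selectin of endothelium and platelets, had changes of 6.21, 3.98 and 2.89. In all 15 of the most persistent rises the 12 reperfused hearts were above the 4 sham hearts, as the rule that named them requires.

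**Figure D2:**
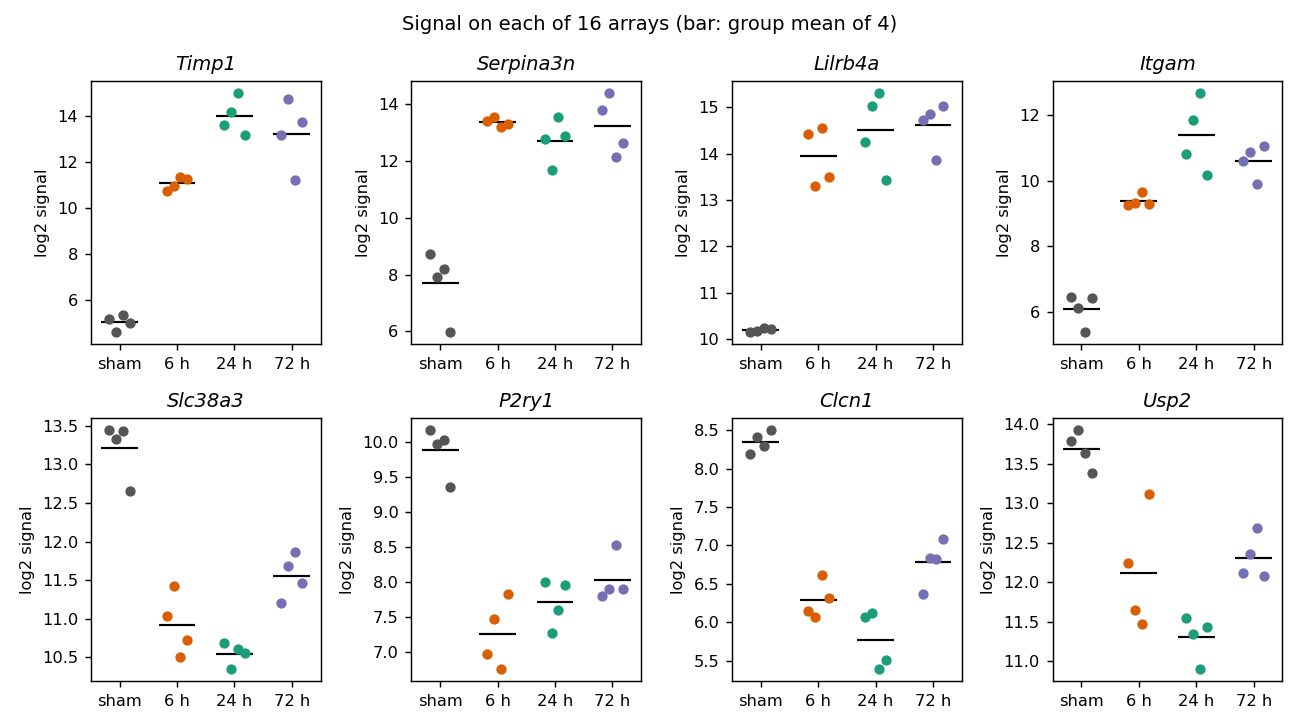
Each point is the log2 signal of a single heart for 4 persistent rises in the top row and 4 persistent falls in the bottom row, with bars at the mean of 4 hearts and the groups along the x axis. No reperfused heart overlaps a sham heart in these 8 genes, as their choice requires, for example 10.74 as the lowest reperfused value of Timp1 against 5.32 as the highest sham value.

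The promoters of some of these genes show the sequence next to their start sites. Promoters of genes named in the results are printed from the RefSeq table on GRCm38.p6, the 250 bases before the start site, 5′ to 3′ on the strand of the gene, with capitals at the motif found. Serpina3n and Itgam were the first rises and Rbm38 the only fall among the 30 most persistent genes whose window held a motif under the rule, and Ccl9 and Selp were added after their values were seen because they hold an AP-1 motif.
Serpina3n, chr12:104406458-104406707, plus strand: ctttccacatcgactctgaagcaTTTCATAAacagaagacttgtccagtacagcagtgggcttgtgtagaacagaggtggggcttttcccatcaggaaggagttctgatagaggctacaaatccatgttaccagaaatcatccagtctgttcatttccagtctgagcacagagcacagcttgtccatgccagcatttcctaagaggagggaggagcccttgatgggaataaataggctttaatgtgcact
Itgam, chr7:128062390-128062639, plus strand: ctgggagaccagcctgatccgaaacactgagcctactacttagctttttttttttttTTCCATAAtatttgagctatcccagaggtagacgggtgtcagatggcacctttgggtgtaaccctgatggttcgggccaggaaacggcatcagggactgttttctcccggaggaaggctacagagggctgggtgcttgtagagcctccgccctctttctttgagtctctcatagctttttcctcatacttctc
Ccl9, chr11:83578637-83578886, minus strand: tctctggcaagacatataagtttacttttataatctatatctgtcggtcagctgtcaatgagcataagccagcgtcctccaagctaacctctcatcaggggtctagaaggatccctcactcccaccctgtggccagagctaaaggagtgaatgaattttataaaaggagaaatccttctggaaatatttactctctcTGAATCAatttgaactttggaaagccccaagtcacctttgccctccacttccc
Selp, chr1:164115014-164115263, plus strand: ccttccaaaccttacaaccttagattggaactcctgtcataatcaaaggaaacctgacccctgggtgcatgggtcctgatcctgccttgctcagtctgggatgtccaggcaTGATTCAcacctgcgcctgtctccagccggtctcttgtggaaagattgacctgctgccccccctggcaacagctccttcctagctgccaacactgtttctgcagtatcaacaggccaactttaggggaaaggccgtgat
Rbm38, chr2:173021652-173021901, plus strand: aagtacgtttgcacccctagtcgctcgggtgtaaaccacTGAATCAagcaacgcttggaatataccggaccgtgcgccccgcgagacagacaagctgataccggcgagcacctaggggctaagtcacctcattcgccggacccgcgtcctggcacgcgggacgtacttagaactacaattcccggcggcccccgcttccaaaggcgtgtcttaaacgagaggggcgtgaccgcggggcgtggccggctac
The capitals are a D-box, TTATGNAA, on the other strand in Serpina3n and Itgam, and an AP-1 motif, TGANTCA, in Ccl9, Selp and Rbm38. The 5 motifs were searched on both strands in windows of 300 bases, from 250 before to 50 after the start: these, the E-box CACGTG, the CRE TGACGTCA and the CArG box, and matches of different motifs were counted separately even where they overlap. The AP-1 motif was in 7.25% of 15691 promoters of measured genes, in 120 of 1414 of the same-direction rises (8.49%) and in 4.94% of the same-direction falls. The E-box was in 8.02% of all promoters, 10.0% of rises and 7.77% of falls, and the D-box in 3.22%, 2.62% and 2.11%. The CRE was in 2.29%, 2.05% and 2.44%, and the CArG box in 1.46%, 1.70% and 1.11%. In the genes whose hearts did not overlap, the AP-1 motif was in 11.2% of rises and 3.79% of falls, the E-box in 9.95% and 8.98%, the D-box in 2.99% and 0.998%, the CRE in 0.746% and 2.99% and the CArG box in 1.99% and 1.40%. These shares describe letters in the windows and say nothing of binding.

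**Figure D3:**
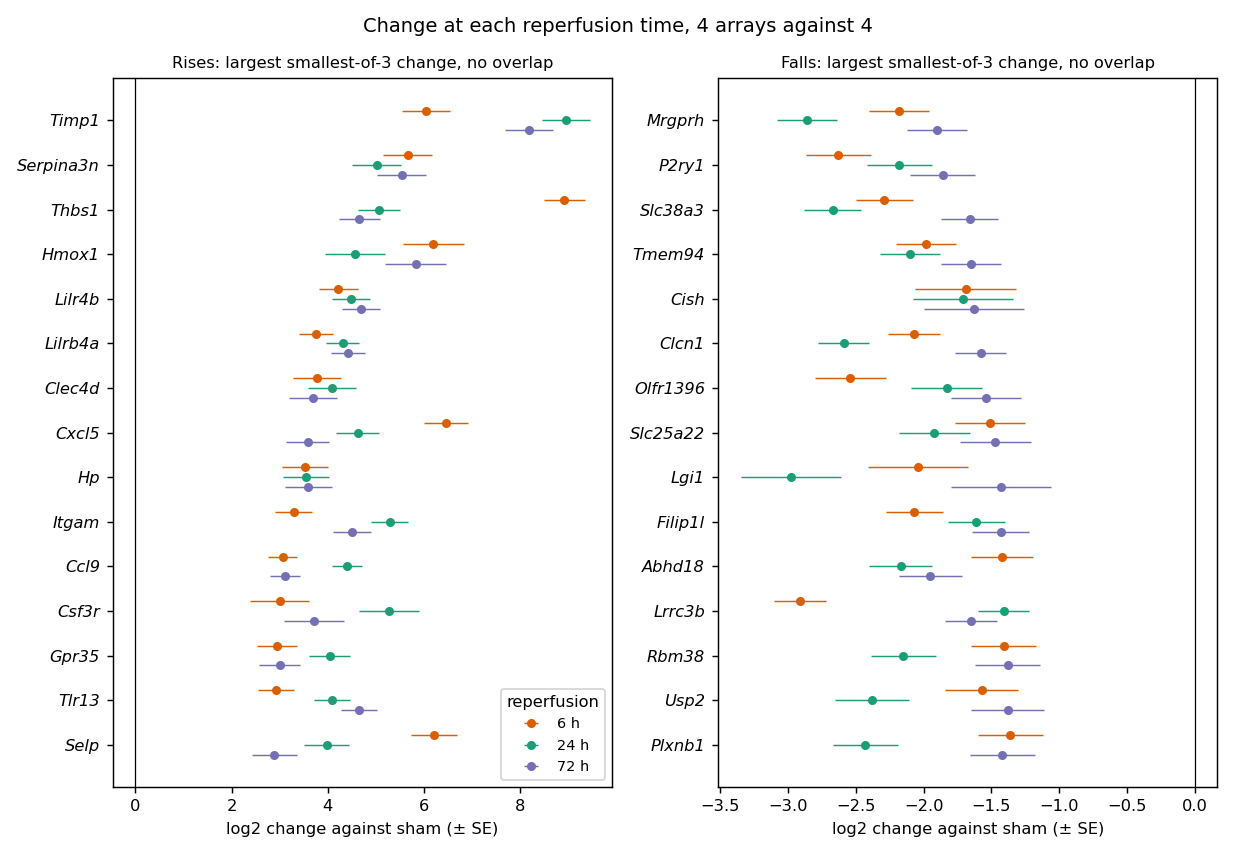
Points are the log2 changes against sham at 6, 24 and 72 h, with SE bars, for the 15 rises and 15 falls whose smallest time change was largest among same-direction genes above background without overlap between reperfused and sham hearts, ordered by that change. Timp1 has the largest smallest change among the rises, 6.04, and Mrgprh among the falls, -1.90, and the 2 panels have different x scales. Background was applied to the lowest time mean of rises and to the sham mean of falls.

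Several genes with the largest pooled change were carried by some of the times. Tnc, the matrix glycoprotein tenascin C, was at 5.54, 4.79, 4.89 and 4.95 in sham and ran from 7.28 to 13.58, with changes of 2.67 at 6 h and 7.46 and 7.86 later. Ccl2, the main chemokine for monocytes, and Ccn2, a matricellular growth factor partner, went the other way in time. Ccl2 changed by 6.04, 6.79 and 2.81, and Ccn2 by 7.16, 5.18 and 2.73. Lcn2, an iron-binding acute-phase protein, was at 9.95, 10.30, 10.40 and 7.38 in sham, where 7.38 is again replicate 5, and its pooled change was 4.98 ± 0.45, or 4.27 without that heart. Prg4, the lubricant proteoglycan lubricin, had a like pattern in sham, 8.98, 9.36, 9.13 and 7.5, and a pooled change of 5.01 ± 0.38, or 4.60 without it. Each of these 5 genes was still displaced upward at 72 h and differed among the times by the F test, with limma adjusted p from 3.65e-09 for Tnc to 4.42e-06 for Ccn2.

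The persistent falls were smaller and included receptors, transporters and a chloride channel. Slc38a3, a glutamine transporter, was at 13.45, 13.33, 13.43 and 12.66 in sham and ran from 10.35 over 10.88 to 11.86 after reperfusion. Its pooled change was -2.21 ± 0.17 (limma adjusted p = 4.17e-08), with -2.29, -2.67 and -1.66 at the 3 times. P2ry1, a purine receptor for ADP, was at 10.18, 9.97, 10.03 and 9.36 in sham and between 6.75 and 8.52 after reperfusion. Its changes were -2.63, -2.18 and -1.86. Clcn1, a chloride channel best known from skeletal muscle, was at 8.19, 8.42, 8.30 and 8.51 in sham and between 5.39 and 7.09 after reperfusion. For these 3 genes the gap between the lowest sham heart and the highest reperfused heart was larger than 0.5 log2 units.

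Mrgprh, an orphan G protein-coupled receptor, had the largest smallest change among falls, -2.18, -2.86 and -1.90. Slc25a22, a mitochondrial glutamate carrier, changed by -1.51, -1.92 and -1.47, and Tmem94 by -1.98, -2.10 and -1.65. Cish, a feedback inhibitor of cytokine signalling through STAT5, was displaced evenly by -1.69, -1.71 and -1.63. The RNA-binding protein gene Rbm38 changed by -1.41, -2.15 and -1.38, the semaphorin receptor gene Plxnb1 by -1.36, -2.43 and -1.42, and the secreted neuronal protein gene Lgi1 by -2.04, -2.98 and -1.43. Lrrc3b and Filip1l were lowest at 6 h, with -2.91, -1.41 and -1.65 for the first and -2.07, -1.61 and -1.43 for the second. Usp2, a deubiquitinase with a circadian rhythm in many tissues, was at 13.79, 13.93, 13.64 and 13.38 in sham and between 10.90 and 13.11 after reperfusion. The remaining persistent falls were Olfr1396 and Abhd18, with smallest changes of -1.54 and -1.42. Each of the 30 persistent genes kept its call and its direction under every alternative run that included it. Both spike-in scales and each array left out were among these runs. The filter on mean signal at the background level removed Plxnb1, Gpr35 and Hp, so they have no call there.

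The ligands of inflammation were next read by list, with shares of all genes as the background: 12.1% rose and 12.3% fell in the pooled test, 9.05% and 11.3% did so in the same direction at every time, and 2.69% and 3.19% also without overlap. Of 23 chemokines, which guide white blood cells, 15 rose, 14 of them in the same direction at every time, and 8 did not pass. Ccl12, a chemokine close to Ccl2, was at 6.72, 5.18, 5.03 and 9.19 in sham, and its highest sham heart, replicate 5, overlapped the lowest reperfused heart at 9.10. Its smallest time change was 3.49, and the overlap kept it out of the most persistent rises. Its pooled change was 4.34 ± 0.51, or 5.23 without that heart. Of 31 cytokines and parts of their signalling, 24 rose and 2 fell, with 23 and 2 in the same-direction classes and a median pooled change of 1.03. Il6, a cytokine that signals through gp130, was at 3.51, 3.10, 3.46 and 3.63 in sham and ran from 4.84 over 6.82 to 11.51. Its changes were 6.98, 3.08 and 2.40. Il33, an alarm signal from damaged stroma, rose by 2.72 ± 0.27, and Il1rn, the natural antagonist of the IL-1 receptor, by 3.63 ± 0.32. Lifr, a receptor chain that pairs with gp130, fell by 0.91 on the log2 scale (SE 0.16) with -0.86, -1.19 and -0.69 at the 3 times.

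Receptors that take up coated particles and proteins of adhesion followed. Of 18 complement and Fc receptor genes 14 rose, all of them in the same direction, and 4 did not pass, with a median pooled change of 1.8. Fcer1g, the signalling chain shared by Fc receptors, was at 7.68, 7.16, 7.54 and 7.89 in sham and ran from 8.94 over 11.62 to 13.04, climbing through changes of 1.78, 3.97 and 5.10. C3ar1, a receptor for a complement fragment, had the same order with 1.19, 3.01 and 4.87. Of 27 lysosome and phagocytosis genes 23 rose and 17 were same-direction rises. The cathepsin gene Ctss rose by 3.20 ± 0.23 and the galectin gene Lgals3 by 3.82 ± 0.35, each largest at 72 h. Of 19 genes of endothelial activation and adhesion 14 rose and 1 fell. The gene that fell was F3, tissue factor, which starts clotting, with -0.64, -1.19 and -0.94. Of 21 genes of the interferon response and antigen presentation 9 rose and 12 did not pass, and in each of these 9 some reperfused heart overlapped sham. Of 14 neutrophil markers 10 rose, and of 18 monocyte and macrophage markers all 18 rose, 15 of them in the same direction.

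The marker levels beside these results moved with time. The mean log2 signal over the neutrophil markers lay between 4.56 and 5.03 in sham, between 7.08 and 8.60 at 6 h, between 6.15 and 8.28 at 24 h and between 5.22 and 6.34 at 72 h. Over the monocyte and macrophage markers it lay between 7.57 and 7.71 in sham, 8.60 and 8.93 at 6 h, 9.75 and 11.55 at 24 h and 10.39 and 11.30 at 72 h. In both lists no reperfused heart overlapped the sham range. Of 13 lymphocyte markers limma called 0, with 1 at an unadjusted p under 0.05, and all 13 were under background in every group. The part of these cells in the rises was not tested.

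Matrix genes were read as proteases, structural proteins and modifying enzymes. Of 25 matrix proteases and inhibitors 17 rose and 15 were same-direction rises. The exception among the calls was Timp4, a further metalloproteinase inhibitor, with 1.55, -2.21 and -2.25 and a pooled change of -0.97 ± 0.32, a call lost on the hybridization spike-ins. The protease gene Adam8 rose by 3.82 ± 0.48 and Plaur, the receptor of urokinase, by 3.57 ± 0.40, both without overlap. Of 21 fibrillar and provisional matrix genes 16 rose, but only 8 were same-direction rises, and the list medians were -0.13, 0.93 and 2.08 at the 3 times. Vcan, the proteoglycan versican, was at 9.12, 8.92, 8.78 and 8.47 in sham and ran from 10.88 over 11.31 to 11.79, with changes of 2.56, 2.71 and 2.26. Postn, the matricellular protein periostin, rose too, with 1.02, 3.1 and 5.73. Of 16 genes of collagen processing and cross-linking 9 rose, 5 of them in the same direction, and of 10 CCN and thrombospondin genes 7 rose, 4 in the same direction. Lox, the enzyme that cross-links collagen, was at 6.03, 5.67, 6.69 and 5.95 in sham and between 8.54 and 12.63 after reperfusion. Its changes were 2.70, 2.95 and 6.07. Col1a1 and Col3a1, the main fibrillar collagens, passed the pooled test with 2.30 ± 0.18 and 2.27 ± 0.23 but were no same-direction genes, since their 6 h means were -0.37 and -0.91 against sham. The Col3a1 call was lost when the 72 h arrays were left out, where its value was 0.63, and both calls when the 12 arrays were taken as 1 group. The mean signal of 11 fibroblast markers lay between 10.95 and 11.25 in sham, 10.69 and 11.23 at 6 h, 10.99 and 11.79 at 24 h and 13.27 and 13.81 at 72 h, and its part in the matrix rises was not tested.

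Most measured members of the cytoskeleton list and of the annexin and S100 list, families of calcium-binding proteins, rose. Of 31 genes of actin filaments and microtubules 27 rose and 4 did not pass, with 21 same-direction rises, 13 of them without overlap (2.69% of all genes), and a median pooled change of 1.3. Tubb6, a beta-tubulin, was at 8.15, 8.20, 7.81 and 7.56 in sham and ran from 8.93 over 11.48 to 13.14, with 3.72, 4.19 and 1.96 at the 3 times. Plek, a protein kinase C substrate of blood cells, rose by 3.26 ± 0.31, and Actn1, an actin cross-linker, by 2.49 ± 0.31. Lcp1, an actin bundler of white blood cells, rose by 2.91 ± 0.31, with sham replicate 5 at 11.08 and the lowest reperfused heart at 11.03. Plek and Lcp1 are known from blood cells as much as from the cytoskeleton list. Of 19 annexin and S100 genes 15 rose and 1 fell. Anxa2, which binds membranes and actin, was at 9.87, 9.28, 9.73 and 9.46 in sham and between 11.76 and 13.73 after reperfusion. It changed by 2.43, 3.52 and 2.70. S100a6 rose by 2.27 ± 0.17 without overlap, while Anxa11 fell by 0.77 on the log2 scale (SE 0.18), a call that centring on the hybridization spike-ins ended.

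**Figure D4:**
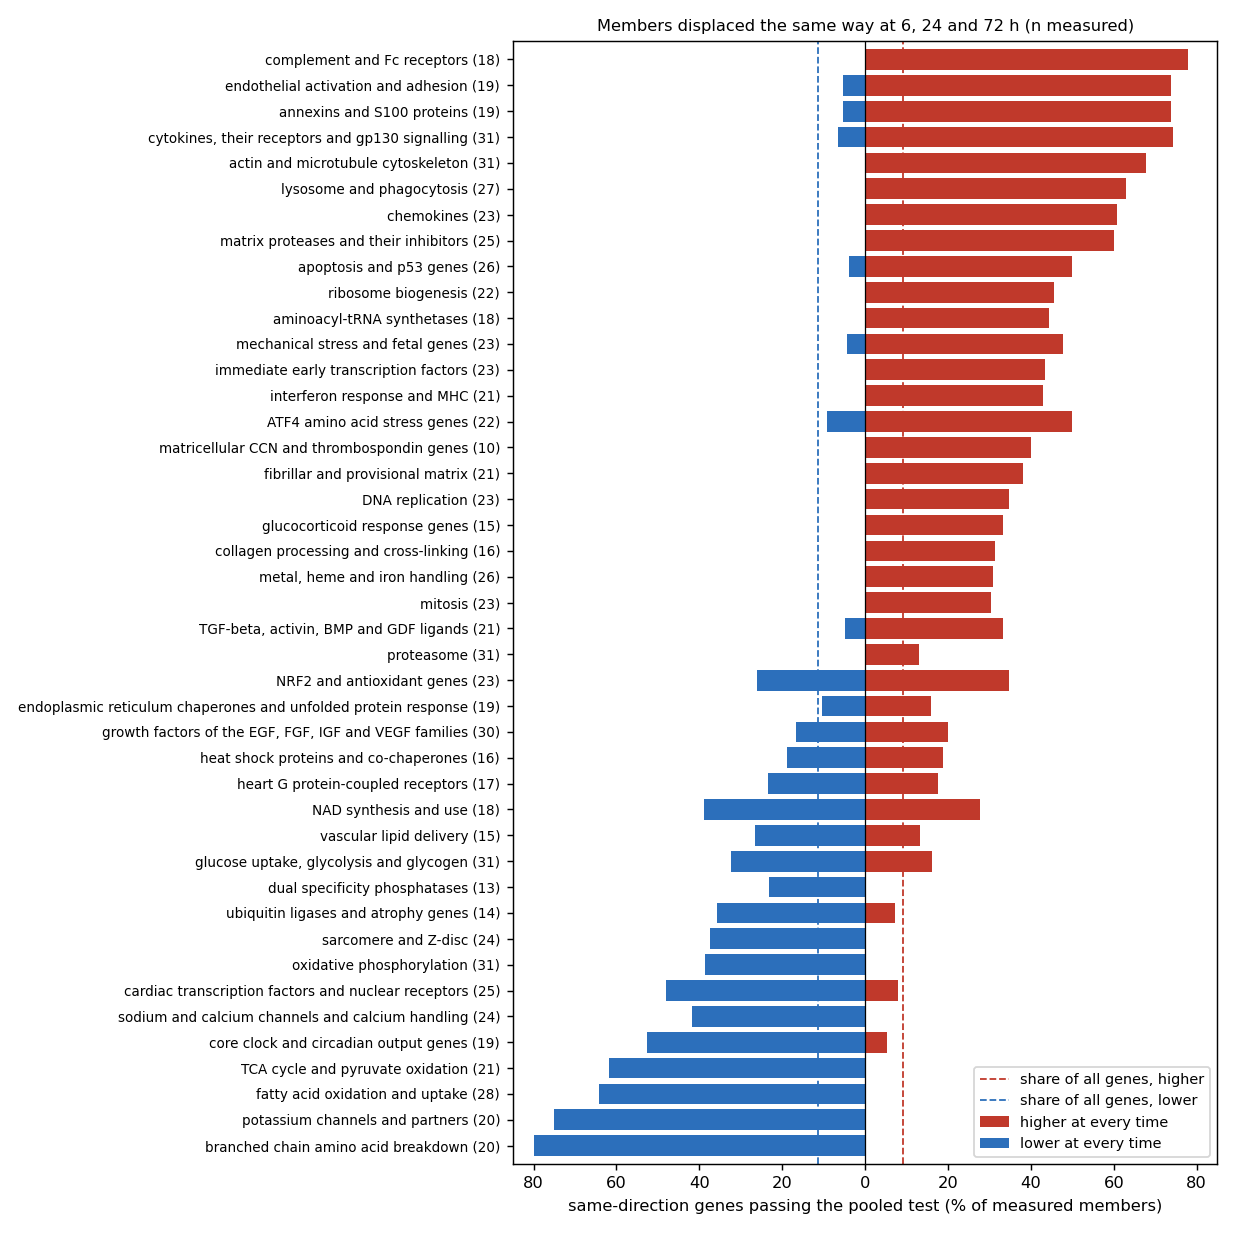
For each of 43 gene lists, bars give the percent of measured members that were same-direction rises (right) or falls (left), with the number measured in brackets. Dashed lines mark the shares of all genes, 9.05% for rises and 11.3% for falls. Complement and Fc receptors hold 14 rises among 18 members and branched chain amino acid breakdown 16 falls among 20.

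Genes of stress, growth and protein synthesis rose in part. Of 23 immediate early transcription factors 13 rose and 10 were same-direction rises, with list medians of 2.12, 0.50 and 0.20. Myc, a driver of growth, was at 5.48, 5.22, 5.36 and 5.37 in sham and ran from 6.46 over 9.54 to 12.44, and even at 72 h its change was 2.16. Egr2 changed by 3.03, 1.97 and 1.48, and Atf3 by 6.07, 1.13 and 0.78, with overlap between the groups. The Atf3 call, unlike that of Egr2, was lost when the 12 reperfused arrays were taken as 1 group. Of 26 genes of apoptosis and the p53 response 16 rose and 3 fell. Casp4, an inflammatory caspase, rose by 1.95 ± 0.21, with 3.0, 1.45 and 1.39. Of 22 target genes of ATF4, the transcription factor of amino acid shortage, 11 rose and 2 fell, all 13 in the same direction at every time. Psat1, of serine synthesis, rose by 2.28 ± 0.30 and Asns, which makes asparagine, by 1.74 ± 0.26. Of 22 ribosome biogenesis genes 17 rose and 5 did not pass, with medians of 0.79, 1.16 and -0.01. Npm1, the nucleolar chaperone, was at 14.57 ± 0.23 (SD, n = 4) in sham and rose by 1.08 ± 0.13 without overlap.

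Most cell division genes that passed the pooled test were not displaced the same way at every time. Of 23 mitosis genes 19 rose but 7 were same-direction rises, and of 23 DNA replication genes 19 rose and 8 were same-direction rises. Both shares of same-direction rises were above the 9.05% of all genes. The medians of the mitosis list were -0.15, 1.11 and 3.0. Kif11, the kinesin of the spindle, was the same-direction rise of the mitosis list without overlap, with changes of 2.07, 1.77 and 3.23. Tyms, which makes thymidylate, changed by 0.65, 1.92 and 1.97, also without overlap. Of 31 proteasome genes 5 rose and 26 did not pass.

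Growth factor lists held calls in both directions, where 12.1% of all genes rose and 12.3% fell. Of 21 ligands and receptors of the TGF-beta family 8 rose and 2 fell, a share of falls under that of all genes. Tgfb2, a ligand that acts on fibroblasts, was at 9.23, 8.81, 9.12 and 9.40 in sham and ran from 10.32 over 11.17 to 12.42, and its changes of 2.08, 2.70 and 1.45 kept every reperfused heart above sham. Its receptor chain gene Tgfbr1 rose by 1.27 ± 0.18. Of 30 genes of the EGF, FGF, IGF and VEGF families 8 rose and 6 fell, with a median pooled change of -0.04 that turned to 0.15 on the hybridization spike-ins. Hgf, the hepatocyte growth factor, changed by 0.66, 1.56 and 2.72. Igfbp5, which binds IGF, fell by 0.95 on the log2 scale (SE 0.18), though its change was -0.04 at 72 h and its call was lost with the 12 arrays as 1 group.

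Protein folding and redox genes held calls in both directions, where 12.1% of all genes rose and 12.3% fell. Of 19 genes of endoplasmic reticulum chaperones and the unfolded protein response 6 rose and 2 fell, a share of falls under that of all genes. Edem1, which sends misfolded proteins to breakdown, was at 7.9, 7.81, 7.62 and 7.72 in sham and ran from 8.09 over 9.27 to 10.03, and no reperfused heart overlapped sham. Herpud1, of the same breakdown route, fell by 0.94 on the log2 scale (SE 0.17). Of 16 heat shock genes 6 rose and 4 fell, and on the hybridization spike-ins 6 rose and 0 fell. Hspa1a and Hspa1b, the inducible forms of HSP70, were carried by 6 h, with 4.9, 0.29 and 0.12 for the first and 4.48, 0.79 and 0.41 for the second. The 2 genes are near-identical copies and their signals are uncertain. In the list of NRF2 and antioxidant defence, 9 of 23 members rose and 6 fell, among them Gpx1, a glutathione peroxidase, with 0.32, 1.75 and 2.06, and Gsta3, a glutathione transferase, with -1.74, -2.04 and -0.34. Of 18 aminoacyl-tRNA synthetases, which charge tRNA with amino acids, 9 rose and 9 did not pass, and Nars rose by 0.78 ± 0.14 without overlap. Of 26 genes of metal, heme and iron handling 11 rose and 2 fell, including Slc11a1, a metal exporter of phagosomes, with 1.75, 2.83 and 3.4 and no overlap.

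Lists of glucocorticoid response, of lipid delivery by vessels and of atrophy were read next. Of 15 glucocorticoid response genes 7 rose and 2 fell, all 15 differed among times, and the list medians were 2.05, -0.27 and -0.02. Angptl4, which holds back lipoprotein lipase, was at 8.15, 8.33, 8.48 and 7.64 in sham and ran from 8.61 over 10.64 to 14.68, with 5.79, 2.33 and 1.48. Errfi1, a feedback inhibitor of the EGF receptor, had 4.43, 1.9 and 0.67, and it too had no overlap. Of 15 genes of lipid delivery by vessels 2 rose and 6 fell. Meox2, a homeobox factor of heart endothelium, changed by -2.1, -0.87 and -0.83 and Tcf15, its partner, by -1.22, -1.04 and -0.85, both without overlap. Vldlr, a lipoprotein receptor, fell by 1.19 on the log2 scale (SE 0.1) with every reperfused heart below sham. Of 14 genes of ubiquitin ligases and atrophy 7 fell and 1 rose. Fbxo40, a muscle ubiquitin ligase, was at 13.52, 13.6, 13.76 and 13.46 in sham and between 12.21 and 13.29 after reperfusion.

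Among 17 G protein-coupled receptors of the heart 4 rose and 5 fell, and their median of -0.06 turned to 0.14 on the hybridization spike-ins. Agtr1a, the receptor of angiotensin II, was at 13.17, 13.36, 13.13 and 13.7 in sham and ran from 11.33 over 12.13 to 12.98. Its changes of -1.16, -1.73 and -0.75 kept every reperfused heart below sham. Aplnr, the apelin receptor, changed by -3.47, -0.28 and 0.22, so its pooled fall was of 6 h. Of 13 dual specificity phosphatases, some of which switch off MAP kinases, 3 rose and 3 fell, and the falls were in the same direction at all times. Dusp5 changed by 2.79, 0.78 and -0.06, and Dusp18 by -0.52, -3.29 and -2.12.

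Potassium channels set the resting potential and end the action potential. Of 20 measured, 15 fell, all in the same direction, 7 without overlap (3.19% of all genes), and 1 rose in the pooled test, with a median pooled change of -0.90. Kcnh2, the rapid delayed rectifier, was at 11.54, 11.89, 12.00 and 11.89 in sham and ran from 9.58 over 10.44 to 11.04. Its changes were -1.85, -1.50 and -1.10. Kcnj2, the inward rectifier that sets the resting potential, was at 9.23, 8.81, 9.25 and 8.38 in sham and between 5.40 and 7.92 after reperfusion. Kcnj3, an atrial channel opened by acetylcholine, fell by 1.61 on the log2 scale (SE 0.15), with -1.67, -1.91 and -1.25. Kcnip2, the partner of the transient outward channel, was lowest at 24 h, with -0.58, -3.27 and -0.69, and its hearts overlapped. The gene that rose was Kcna5, with 2.0, -0.04 and -0.53, and without the 6 h arrays its pooled change was -0.28. On the hybridization spike-ins 13 potassium channel genes fell, with a list median of -0.71. Of 24 sodium and calcium channel and calcium handling genes 10 fell and 14 did not pass, or 5 falls on that scale. Camk2a, a calcium-dependent kinase, fell by 0.92 on the log2 scale (SE 0.16) and Cacnb2, a calcium channel subunit, by 0.83 (SE 0.14), both without overlap.

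Genes of mitochondrial fuel breakdown held falls and members that did not pass. Of 20 genes that break down branched chain amino acids 17 fell and 3 did not pass, 16 of them in the same direction, with a median pooled change of -0.61. Ppm1k, the phosphatase that switches this pathway on, was at 13.48, 12.90, 13.38 and 12.80 in sham and ran from 11.05 over 12.00 to 12.61. Its changes were -0.78, -1.88 and -1.04. Mmut, an enzyme of the last steps, fell by 1.00 on the log2 scale (SE 0.16) without overlap. Of 28 genes listed under fatty acid oxidation and uptake, the pyruvate dehydrogenase kinase genes Pdk2 and Pdk4 included, 20 fell and 1 rose. Acot2, a mitochondrial thioesterase, changed by -0.33, -1.82 and -1.50. The riser was Pdk4, which restrains pyruvate oxidation, with 4.01 at 6 h, -1.23 at 24 h and 0.15 at 72 h, so it was no same-direction gene, and without the 6 h arrays its pooled change was -0.54. Of 21 genes of the citrate cycle and pyruvate oxidation 13 fell and 8 did not pass, and of 31 genes of oxidative phosphorylation 16 fell and 15 did not pass. Ogdh, of the citrate cycle, was at 17.94 ± 0.06 (SD, n = 4) in sham, its lowest sham heart at 17.86, and between 16.41 and 17.7 after reperfusion. Ndufa8, of respiratory complex I, fell by 0.68 on the log2 scale (SE 0.11), also without overlap.

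These metabolic counts depended on the scale. Centred on the hybridization spike-ins, 9 branched chain genes, 8 fatty acid genes, 1 citrate cycle gene and 2 oxidative phosphorylation genes fell. All 4 medians stayed under 0 there, at -0.41, -0.27, -0.21 and -0.16, where the median of all genes was 0.13. On the poly-A spike-ins 18, 19, 11 and 13 fell. The time medians of the oxidative phosphorylation list were -0.03, -0.55 and -0.48, against -0.04, -0.07 and -0.09 for all genes. The mean signal of 12 cardiomyocyte markers was between 17.52 and 17.60 in sham, 17.48 and 17.55 at 6 h, and it reached at most 17.36 at 24 h and 17.38 at 72 h, with 4 of 12 markers called lower. Its part in these falls was not tested.

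Glucose and NAD genes held calls in both directions, where 12.1% of all genes rose and 12.3% fell. Of 31 genes of glucose uptake, glycolysis and glycogen 5 rose, a share near that of all genes, and 12 fell. Slc2a4, the insulin-responsive glucose transporter, was at 11.94, 12.00, 12.03 and 11.99 in sham and ran from 9.59 over 11.05 to 11.61, while Slc16a3, which exports lactate, was at 6.54, 6.04, 6.70 and 6.06 and ran from 7.32 over 8.48 to 10.21. Neither gene had a reperfused heart inside the sham range. Of 18 NAD genes 5 rose and 7 fell. Nmnat1, the nuclear enzyme of NAD synthesis, fell evenly, with -1.33, -1.06 and -1.26, and Nmrk2, which uses nicotinamide riboside, changed by 3.52, 6.53 and 0.31. The Nmrk2 call was lost with the 12 arrays as 1 group.

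Heart muscle depends on its own transcription factors and on the sarcomere, its contractile unit. Of 25 cardiac transcription factors and nuclear receptors 14 fell, 3 rose and 8 did not pass, and 7 fell on the hybridization spike-ins. Irx4, a ventricular factor, was at 8.96, 8.75, 8.79 and 9.17 in sham and between 6.02 and 8.53 after reperfusion. Prox1 fell by 1.47 on the log2 scale (SE 0.21) without overlap, while Runx1, a factor of blood cells that injured cardiomyocytes also make, rose by 1.62 ± 0.19, with 1.54, 1.35 and 1.99. Ppara, a master factor of fatty acid use, changed by -0.32, -2.39 and -1.77. Of 24 sarcomere and Z-disc genes 10 fell and 14 did not pass, or 4 falls on those spike-ins. Tcap, a Z-disc cap of titin, was at 15.11 ± 0.15 (SD, n = 4) in sham, and its means were 14.07, 12.42 and 13.81 at the 3 times, with no reperfused heart above 14.61. Ldb3, also of the Z-disc, fell by 0.86 on the log2 scale (SE 0.12), with -0.69, -0.76 and -1.11.

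Clock genes differed among the times. Of 19 clock and output genes 12 fell and 1 rose, with 10 falls in the same direction, and all 19 differed among the times by the F test. Per3 had changes of -3.25, -2.44 and -0.02 and Dbp, an output factor, of -2.50, -1.99 and -0.23. Ciart, a repressor of the clock, went from -0.26 at 6 h to -4.61 and -2.44. Arntl, the activator at the core of the clock, was the gene that rose, with 1.98, 2.17 and 0.58. The hour of day of collection is not given in the labels, and its part in these values was not tested.

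Of 23 genes of mechanical stress and the fetal heart 16 rose and 1 fell, with list medians of 1.94, 2.22 and 0.16. Ankrd1, a stretch-responsive factor, was at 16.68, 16.62, 16.79 and 18.27 in sham, the last being replicate 5, and ran from 18.30 over 19.02 to 19.37. Its pooled change was 1.90 ± 0.21 (limma adjusted p = 2.52e-06), and 2.29 without that heart. Nppa and Nppb, the natriuretic peptides, had pooled changes of 1.32 ± 0.23 and 2.51 ± 0.30, but Nppa was at 0.01 at 6 h and Nppb at 0.38 at 72 h, and their hearts overlapped. Without the 24 h heart that was high in atrial markers Nppa was 1.30. The Nppa and Nppb calls were lost with the 12 arrays as 1 group. Fhl2, a binding partner of titin, went down in every reperfused heart, from 17.63 as the lowest sham value to 17.36 as the highest reperfused value. Myh6, Myh7, Pln, Atp2a2, Cd36 and Acta1, genes of contraction, calcium uptake and fatty acid uptake, did not pass the pooled test, with changes of -0.14, 0.04, -0.21, -0.21, -0.28 and 0.41 and limma adjusted p from 0.0907 to 0.925. All 6 passed at 24 h, with changes of -0.58, 0.81, -0.38, -0.42, -0.42 and 1.56 and limma adjusted p from 0.00115 to 0.0374, and Cd36 passed at 72 h too, with -0.57. Without sham replicate 5, which was the highest sham heart for Acta1 at 14.28, that gene reached 0.77 with an adjusted p of 0.0277.

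A further group was chosen for a small range among its 3 changes, so its evenness is a description. In 354 rises and 1030 falls the 3 changes lay within 0.5 of each other. Besides Hp these included Cd80, a costimulatory molecule, with 2.14, 2.09 and 2.02, B4galt5, a galactosyltransferase, with 2.18, 2.29 and 2.07, and Tns3, an adhesion adaptor, with 2.06, 1.96 and 1.91. Il1rap, the shared chain of IL-1 and IL-33 receptors, had 1.22, 1.35 and 1.22, and Adss, of adenine nucleotide synthesis, 1.35, 1.26 and 1.16. Among falls, Stk39, a kinase of ion transport, was at 14.52, 14.55, 14.57 and 14.35 in sham and ran from 12.92 over 13.44 to 13.64. Rxrg, a retinoid X receptor, had -1.14, -1.38 and -1.21, Cpox, of heme synthesis, -1.12, -1.12 and -0.92, and Cideb, a lipid droplet protein, -1.31, -1.49 and -1.24. The time means of Cideb, 6.16, 5.98 and 6.23, were under background, so the size of its fall is uncertain. In each of these genes the reperfused and sham hearts did not overlap, as the choice requires.

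Pooling the times also passed genes that no single time passed. Clint1, of vesicle traffic, had a pooled change of 0.39 ± 0.12 (limma adjusted p = 0.0196) with 0.4, 0.37 and 0.39 at the times, and limma adjusted p of 0.0574, 0.0616 and 0.0577. Its sham hearts lay between 12.97 and 13.14 and its reperfused hearts between 13.23 and 13.81, so they did not overlap. Ranbp9, a scaffold protein, had -0.38 ± 0.12, with -0.35, -0.38 and -0.41, and its hearts overlapped. Pdcd10, Exoc5, Flvcr1 and Hpf1 were higher by 0.35 to 0.52, and Plekhg5, Fxr2, Fahd1 and Tsc22d4 lower, with pooled changes between -0.58 and -0.39. All 5 of these higher genes lost their call on the poly-A spike-ins and all 5 lower genes on the hybridization spike-ins. Each lost it too without some single array.

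**Figure D5:**
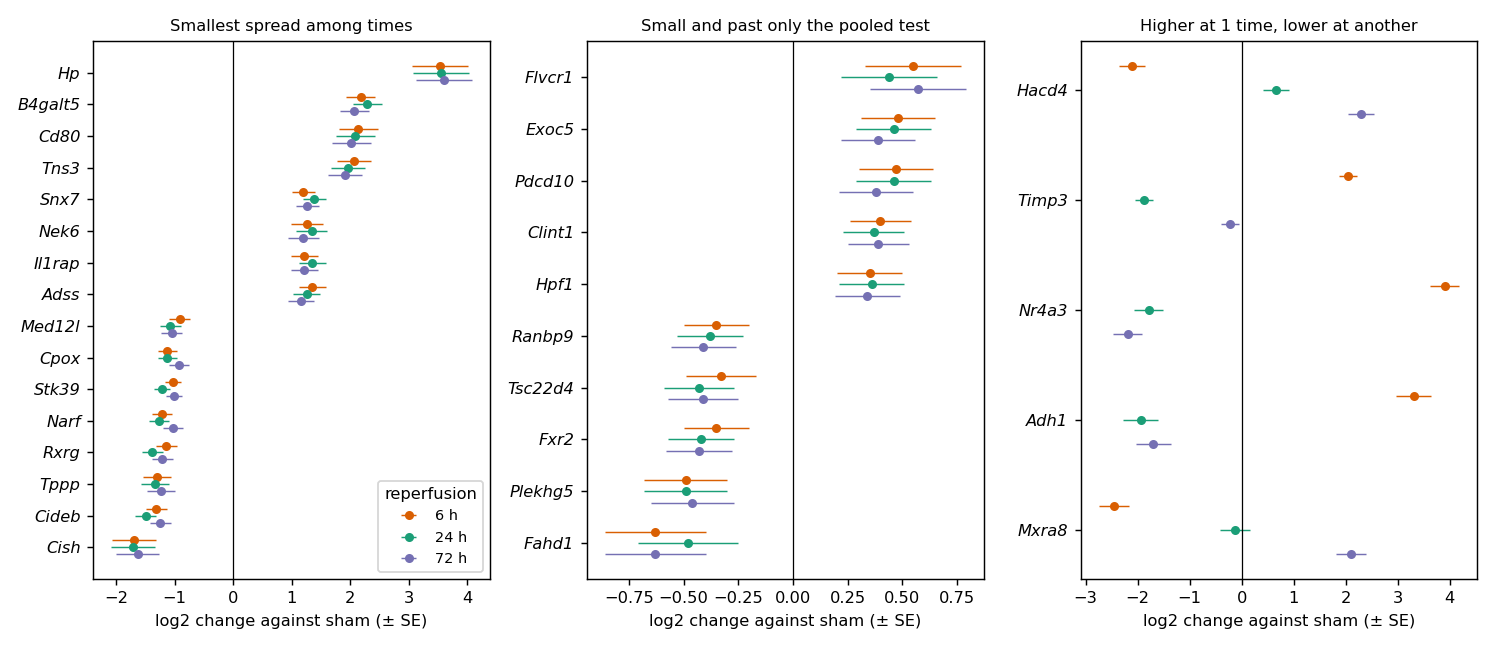
Points are log2 changes against sham at 6, 24 and 72 h with SE bars, for non-overlapping genes with the smallest range, genes past only the pooled test, and genes higher at 1 time and lower at another, each panel with its own x scale. Hp sits at 3.53, 3.55 and 3.6, while Nr4a3 goes from 3.91 at 6 h to -2.19 at 72 h.

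The pooled change hides genes that crossed sham. In 417 genes (2.14% of those tested) 1 time was called higher and another lower, and 73 of these still passed the pooled test. Nr4a3, an immediate early nuclear receptor, had 3.91, -1.79 and -2.19 and a pooled change of -0.02 ± 0.23. Timp3, an inhibitor of metalloproteinases bound to the matrix, had 2.04, -1.88 and -0.23, while Timp1 was above sham at all 3. Adh1, an alcohol dehydrogenase, had 3.31, -1.94 and -1.70. Hacd4, of fatty acid elongation, had -2.11, 0.67 and 2.3, and Mxra8, a receptor of stromal cells, -2.46, -0.13 and 2.11. For these 5 genes the pooled limma adjusted p was between 0.347 for Hacd4 and 0.959 for Nr4a3.

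Markers of other cells were read over the same hearts. Of 11 endothelial markers 4 fell and 1 rose. Kdr, the main VEGF receptor, was at 14.98, 14.76, 15.12 and 15.10 in sham and ran from 13.88 over 14.17 to 14.47, with -0.82, -0.88 and -0.70, and Tek, the angiopoietin receptor, had -1.40, -0.61 and -0.69. Of 11 smooth muscle and pericyte markers 1 rose and 3 fell, the falls without overlap: Abcc9, Kcnj8 and Myh11, the first pair being subunits of an ATP-sensitive potassium channel, with -0.86 ± 0.12, -0.83 ± 0.15 and -0.75 ± 0.13. Of 12 markers of resident macrophages 5 rose, 3 of them in the same direction at every time, with list medians of -0.13, 0.34 and 1.09. Igf1, 1 of the 5, changed by -1.39, 1.53 and 3.27. Mrc1, a scavenger receptor, was the 1 member that rose without overlap. It was at 11.74, 11.94, 11.88 and 12.49 in sham and at most 14.39 after reperfusion, with changes of 1.1, 1.39 and 2.3. Aldh1a2, which makes retinoic acid and stood in the epicardial list, was at 5.99, 6.62, 6.61 and 6.41 in sham and ran from 8.11 over 9.62 to 10.56. In that list 3 genes rose and 1 fell, and 8 of 10 were under background in every group. Of 8 adipocyte markers limma called 0, with 0 at an unadjusted p under 0.05, and of 3 erythroid markers 0, with 1 at that p. Of 6 platelet markers 2 rose and 4 did not pass, with a median pooled change of -0.07. The risers were Pf4, by 2.22 ± 0.23, and Ppbp, by 1.8 ± 0.4, both chemokines stored in platelets. Pf4 changed by 0.59, 2.78 and 3.29 and Ppbp by 0.89, 2.91 and 1.61, both with overlap. Which cells these 2 transcripts came from was not tested.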

How the data were processed

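RNA from 16 whole hearts was measured on Affymetrix arrays. Per the submitters' processing notes, Affymetrix Expression Console was used, with version and settings not given in the sources used here. Deposited values are on a log2 scale, as the authors normalized them, and no scanner intensities were used. The table's probe set names belong to a mouse transcript cluster design other than the array the series' design text names, and hours were taken from the sample labels, which differ from those in the title. Of 28846 probe sets 19572 carried 1 gene symbol and 9274 none. For the 55 genes with several probe sets the one with the highest mean was kept, leaving 19505 genes. Depth does not apply to arrays; their number limits precision, and the median standard error of a pooled change was 0.15.

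A limma 3.58.1 fit (R 4.3.3) with 4 group means over all 16 arrays gave the pooled contrast, each time against sham and an F test among the 3 times, each adjusted by Benjamini-Hochberg over all genes at 0.05. No filter on dim genes was set. Folds are 2 to the power of a log2 difference. The code was tested on simulated data. The members, lists and tests were chosen with earlier results of these data known, so no count over a list supports a claim about it.

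Named genes passed over predicted genes and were the 15 rises and falls with the largest smallest time change among same-direction genes without overlap, the 10 largest pooled changes, the 8 most even without overlap and with a pooled change of at least 1, the 5 that only the pooled contrast passed and the 5 with opposite changes. Up to 4 members of each list with the largest called change, the largest call in the other direction, and 18 genes fixed by name were added. Of 1158 list genes 1056 were measured, 6 of them matched by another symbol. Dim genes were left out of the first 5 groups. Rises needed a lowest time mean of at least 6.76, and falls such a sham mean. Opposed genes needed 1 group mean at that level. Promoters came from RefSeq on GRCm38.p6, matched by symbol for 15691 genes. Alternatives were other array centrings, quantile normalization, moderation, array weights, filters on dim genes, averaging of probe sets, a 2-fold threshold, the 12 reperfused arrays as 1 group, each time left out and each array left out.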

Additional observations from a re-analysis of the deposited data

Results flagged for a closer look

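Some single hearts lay far from the other 3 of their group in a gene described, by the gap to the nearest heart over the range of the group, a measure by which chance marks about 1 in 20 groups. Many genes were read this way, each in 4 groups, so many marks arise at that rate. No heart is called aberrant by them. In sham, replicate 5 was at 18.27 for Ankrd1 (the others from 16.62 to 16.79), 7.38 for Lcn2, 12.66 for Slc38a3 and 17.23 for Cd36. The other sham hearts marked were replicate 3 at 9.03 for Adss, 12.14 for Filip1l and 14.25 for Pdk4, replicate 2 at 7.37 for Ccn2 and replicate 4 at 12.97 for Clint1. Cd36 did not pass the pooled test, and the Clint1 call was lost without replicate 4.

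At 6 h, replicate 11 was at 10.75 for Dusp18, 13.58 for Errfi1, 13.29 for Fbxo40, 7.15 for Il1rn and 7.24 for Tlr13. Replicate 7 was at 12.09 for Ccl2 and 13.77 for Ccl9, replicate 8 at 8.69 for Aldh1a2 and replicate 10 at 9.65 for Itgam.

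At 24 h, replicate 16, the heart high in atrial markers, was at 18.57 for Atp2a2, 14.78 for Cacnb2, 10.48 for Camk2a, 14.86 for Ldb3, 15.73 for Prg4 and 7.78 for Tsc22d4. Of these 6, 5 were its group's lowest value and Prg4 the highest. Replicate 17, the heart apart on the first principal component, was at 13.12 for Mrc1 and 7.55 for Plekhg5, and replicate 15 at 4.95 for Lgi1. At 72 h, replicate 22 was at 8.52 for P2ry1 and 11.88 for Per3, replicate 20 at 5.49 for Hspa1a and 7.14 for Kcna5, replicate 21 at 10.82 for Aplnr and replicate 23 at 5.89 for Cideb.

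Changes against sham differed among the reperfusion times in 2356 same-direction genes by the limma F test. The 5 genes with opposed changes had F test adjusted p of 9.58e-10 for Adh1, 5.54e-10 for Hacd4, 4.14e-09 for Mxra8, 1.59e-11 for Nr4a3 and 2.17e-11 for Timp3.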

How the results depend on the processing

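Centred on the hybridization spike-ins, 850 genes fell in the pooled contrast, 676 as same-direction genes and 170 without overlap, 13642 differed among times, and rises and falls numbered 975 and 3993 at 6 h, 4546 and 841 at 24 h and 7270 and 247 at 72 h. On the poly-A spike-ins same-direction rises were 1076, those without overlap 343, 6 h rises and falls 864 and 6087, and 72 h falls 590. Centring on the median gene gave 3532 falls at 72 h. With the reperfused arrays as 1 group, whose spread then holds the differences among times, 827 genes rose and 1012 fell, and these were also the same-direction genes. Without the 6 h arrays there were 2696 same-direction rises, 1451 rises and 1309 falls without overlap and 2520 genes that differed between times, and without the 72 h arrays 848 rises and 976 falls without overlap. Requiring a 2-fold change left 821 and 269 pooled calls, 677 and 264 same-direction genes, 341 and 170 without overlap, 755 and 609 at 6 h, 1187 and 606 at 24 h and 1160 and 310 at 72 h. Leaving out each array in turn gave 1904 to 2553 pooled rises and 1829 to 2570 falls, 1468 to 1870 and 1733 to 2343 same-direction genes, 527 to 711 and 634 to 819 without overlap, 6539 to 7652 by the F test, 1331 to 1632 and 1865 to 2451 at 6 h, 2279 to 2948 and 1890 to 2616 at 24 h and 1858 to 2320 and 1343 to 2097 at 72 h. Values that reversed were Adh1 at 0.81, Nr4a3 at 0.86 and Timp3 at 0.91 without 24 h; Dusp10 at -0.26, Kcna5 at -0.28, Mustn1 at -0.03, Mxra8 at 0.99 and Pdk4 at -0.54 without 6 h; and Hacd4 at -0.72 and Nr4a3 at 1.06 without 72 h. Each of these 9 genes had times on both sides of sham. Of the 280 named genes, 27 lost their call on the hybridization spike-ins, 14 on the poly-A spike-ins, 8 with quantile normalization, 100 with the reperfused arrays as 1 group, and 2 to 25 without a single array. Apart from the reading of times left out and of the 1-group spread, the cause of these changes was not tested. No paired analysis was possible because no replicate number is shared between groups. Signals under background limit what can be said of 335 rises and 472 falls. The size of the change is uncertain for all 707 rises whose sham mean lay under background. Il6, Tnc, Ccl2, Myc, Adam8, Plaur, Il1rn, Lgals3 and Lox are among these.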
